A study of Homo sapiens with 10 samples.

Results

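The subject here is the set of 9 genes that let the human neuroblastoma line SH-SY5Y receive and clear acetylcholine. They were taken from the gene table by symbol. They are the nicotinic receptor subunits CHRNA3, CHRNA5, CHRNA7, CHRNB2 and CHRNB4, the muscarinic receptors CHRM2 and CHRM3, and the cholinesterases ACHE and BCHE, out of 58174 genes listed. All 9 passed a minimum mean of 1 TPM (a length-corrected share of the transcripts of a library) over the 10 libraries and were tested among 17118 genes.

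RNA of 4 groups of SH-SY5Y cells, an established catecholamine-producing line, was sequenced. The siTDP-43 group (3 libraries) was transfected with a pool of small interfering RNAs against TDP-43, and the siControl group (3 libraries) with a pool of control RNAs. The dose was 50 nM, given again at 24 hours, and cells were taken at 96 hours. The N352S group (2 libraries) was homozygous for TDP-43 carrying the N352S substitution after genome editing, and its wild type group (2 libraries) had unchanged TDP-43. The labels do not say whether each edited genotype is 1 clone or several, nor whether the wild type cells went through editing, so a clone's own history and the substitution cannot be told apart. The libraries of a group are called biological replicates with no culture named, and a p-value here speaks only of the spread among libraries, which may be technical.

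Acetylcholine acts on 2 kinds of receptor. Nicotinic receptors are pentameric cation channels, and in autonomic ganglia, from whose lineage neuroblastoma arises, the main form joins CHRNA3 with CHRNB4, at times with CHRNA5 or CHRNB2, while CHRNA7 forms channels of its own kind. Muscarinic receptors are coupled to G proteins, CHRM3 to the Gq class and CHRM2 to the Gi class. Acetylcholinesterase (ACHE) ends the signal by hydrolysing acetylcholine at synapses, and butyrylcholinesterase (BCHE), its relative with a broader choice of substrate, does so in plasma and around glia. TDP-43, encoded by TARDBP, binds UG-rich RNA in the nucleus and controls splicing and stability of many neuronal transcripts.

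TARDBP stood at 62.26, 63.12 and 67.67 TPM in siTDP-43 libraries, against 255.53, 255.57 and 256.30 TPM in siControl libraries. All siTDP-43 libraries were far lower (log2 difference -1.98 ± 0.04, limma adjusted p = 3.8e-08). TARDBP stood at 122.80 and 122.33 TPM in N352S libraries, against 195.53 and 205.39 TPM in wild type libraries, and was thus lower in edited cells too (log2 difference -0.70 ± 0.05, limma adjusted p = 1.9e-05). Noradrenergic markers were present, with 10 of 10 at a mean of 1 TPM or more in the siTDP-43, siControl and N352S groups and 9 of 10 in the wild type group. Tyrosine hydroxylase (TH) was the lowest of them, at 0.36 to 3.42 TPM over all libraries. Of the skeletal muscle markers, which go with another nicotinic receptor type, all 7 together summed to at most 2.98 TPM in a library. Mitochondrially encoded genes held 15.53% to 16.16% of TPM in siTDP-43 libraries and 12.0% to 14.3% in siControl libraries, and 13.57% to 14.11% in N352S libraries and 13.97% to 14.75% in wild type libraries. Library depth is not known, since TPM carry none.

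The promoters of both cholinesterases and of 2 neighbouring nicotinic genes are shown because these pairs parted ways in the data below. Each is the 250 bases before the RefSeq transcription start (GRCh38.p14), and capitals mark the GC box, GGGCGG on either strand. Overlapping matches were each counted, so a run of capitals can hold fewer separate boxes than its count. A GC box was found in 42.6% of all 35116 promoters of that length. ACHE, chr7:100895889-100896138, minus strand, the first of 3 starts in the table, had 5 GC boxes and a GC content of 75.2%. BCHE, chr3:165837424-165837673, minus strand, had none and a GC content of 33.2%. CHRNA3, chr15:78620997-78621246, minus strand, had 4 and 73.6%. CHRNB4, chr15:78641211-78641460, minus strand, had 3 and 72.4%.
ACHE: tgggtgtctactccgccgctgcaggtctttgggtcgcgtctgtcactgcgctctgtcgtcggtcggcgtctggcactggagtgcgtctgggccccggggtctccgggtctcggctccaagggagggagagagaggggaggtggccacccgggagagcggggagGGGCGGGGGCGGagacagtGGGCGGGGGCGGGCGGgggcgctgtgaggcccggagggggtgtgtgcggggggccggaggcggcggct
BCHE: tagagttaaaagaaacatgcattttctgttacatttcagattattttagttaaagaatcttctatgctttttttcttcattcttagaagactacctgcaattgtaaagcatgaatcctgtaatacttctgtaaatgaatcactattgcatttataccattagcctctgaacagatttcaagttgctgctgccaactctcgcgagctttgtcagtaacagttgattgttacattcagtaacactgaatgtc
CHRNA3: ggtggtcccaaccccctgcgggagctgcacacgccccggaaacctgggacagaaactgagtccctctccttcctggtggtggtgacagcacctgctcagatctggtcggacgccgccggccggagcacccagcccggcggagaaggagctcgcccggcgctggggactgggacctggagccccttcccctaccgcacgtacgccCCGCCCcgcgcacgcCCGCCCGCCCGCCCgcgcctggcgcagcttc
CHRNB4: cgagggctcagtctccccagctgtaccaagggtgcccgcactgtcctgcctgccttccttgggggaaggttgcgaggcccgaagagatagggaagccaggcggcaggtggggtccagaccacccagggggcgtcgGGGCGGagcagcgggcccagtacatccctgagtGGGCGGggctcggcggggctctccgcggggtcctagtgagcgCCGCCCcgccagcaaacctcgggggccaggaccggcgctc
The median GC content over all promoters was 58.0%, so BCHE lay below it and the other 3 above it. Among the other members matched in the table, CHRNA7 had 6 GC boxes (first of 2 starts), CHRM2 had 1 (first of 3 starts), and CHRM3 and CHRNB2 had none. CHRNA5 had no entry.

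On TDP-43 knockdown 5 of the 9 genes fell and none rose. ACHE fell most, to 46.1% of its siControl mean, followed by CHRNA7 (66.2%), CHRNA3 (67.4%), CHRNA5 (73.8%) and CHRM3 (77.6%). CHRNB2, CHRNB4, CHRM2 and BCHE did not pass the test. The median log2 difference of the 9 was -0.36, against -0.08 for all tested genes. Calls were made at an adjusted p under 0.05 from limma across all 17118 genes, where 26.0% of genes were called in either direction, 19.8% lower and 6.19% higher. Of all calls 76.2% were lower, against 51.7% under median-of-ratios scaling, 51.1% under quantile normalization and 65.8% with mitochondrially encoded genes left out. Under median-of-ratios scaling all 5 members stayed below siControl, although CHRNA5 lost its call (adjusted p = 0.052). Fold changes are differences of log2(TPM + 1), which understate changes of low genes, and values after ± are standard errors of the fit where they follow a log2 difference and SDs elsewhere. In bulk RNA, fewer cells of a type and less RNA per cell cannot be told apart.

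In N352S cells, 3 members fell and 2 rose. BCHE fell to 4.22% of its wild type mean, CHRM2 to 14.9% and CHRNB2 to 70.1%, while ACHE rose 1.36-fold and CHRM3 rose 1.2-fold. The 4 others, CHRNA3, CHRNA5, CHRNA7 and CHRNB4, did not pass the test. Over all tested genes 20.2% were called in this comparison, 11.9% lower and 8.28% higher. The median log2 difference of the 9 was -0.12, against -0.03 for all tested genes. The rises of ACHE and CHRM3 both lost their call without N352S replicate 81 or without wild type replicate 80 and when only these 2 groups were fitted. The 3 falls held under every alternative run.

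**Figure D1:**
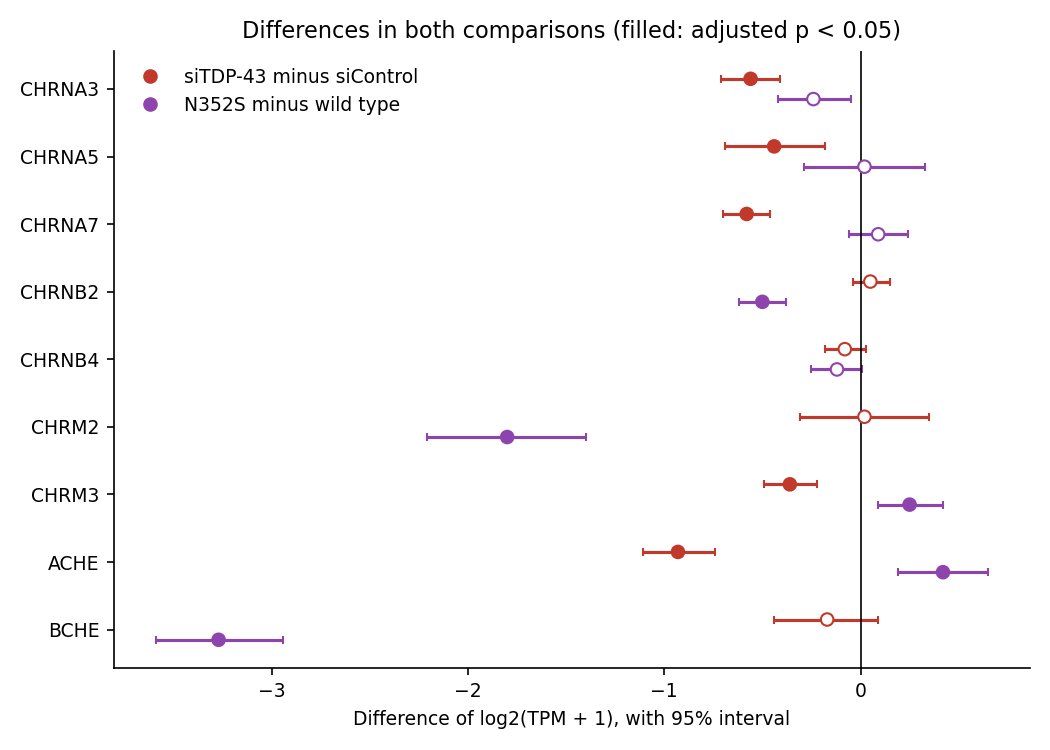
Difference of log2(TPM + 1) with its 95% interval for each gene, siTDP-43 minus siControl (red, 3 libraries a group) and N352S minus wild type (purple, 2 libraries a group), filled where the adjusted p was under 0.05. ACHE lies at -0.93 and 0.42 and BCHE at -0.17 and -3.27, so the largest knockdown difference and the largest N352S difference belong to different cholinesterases.

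**Figure D2:**
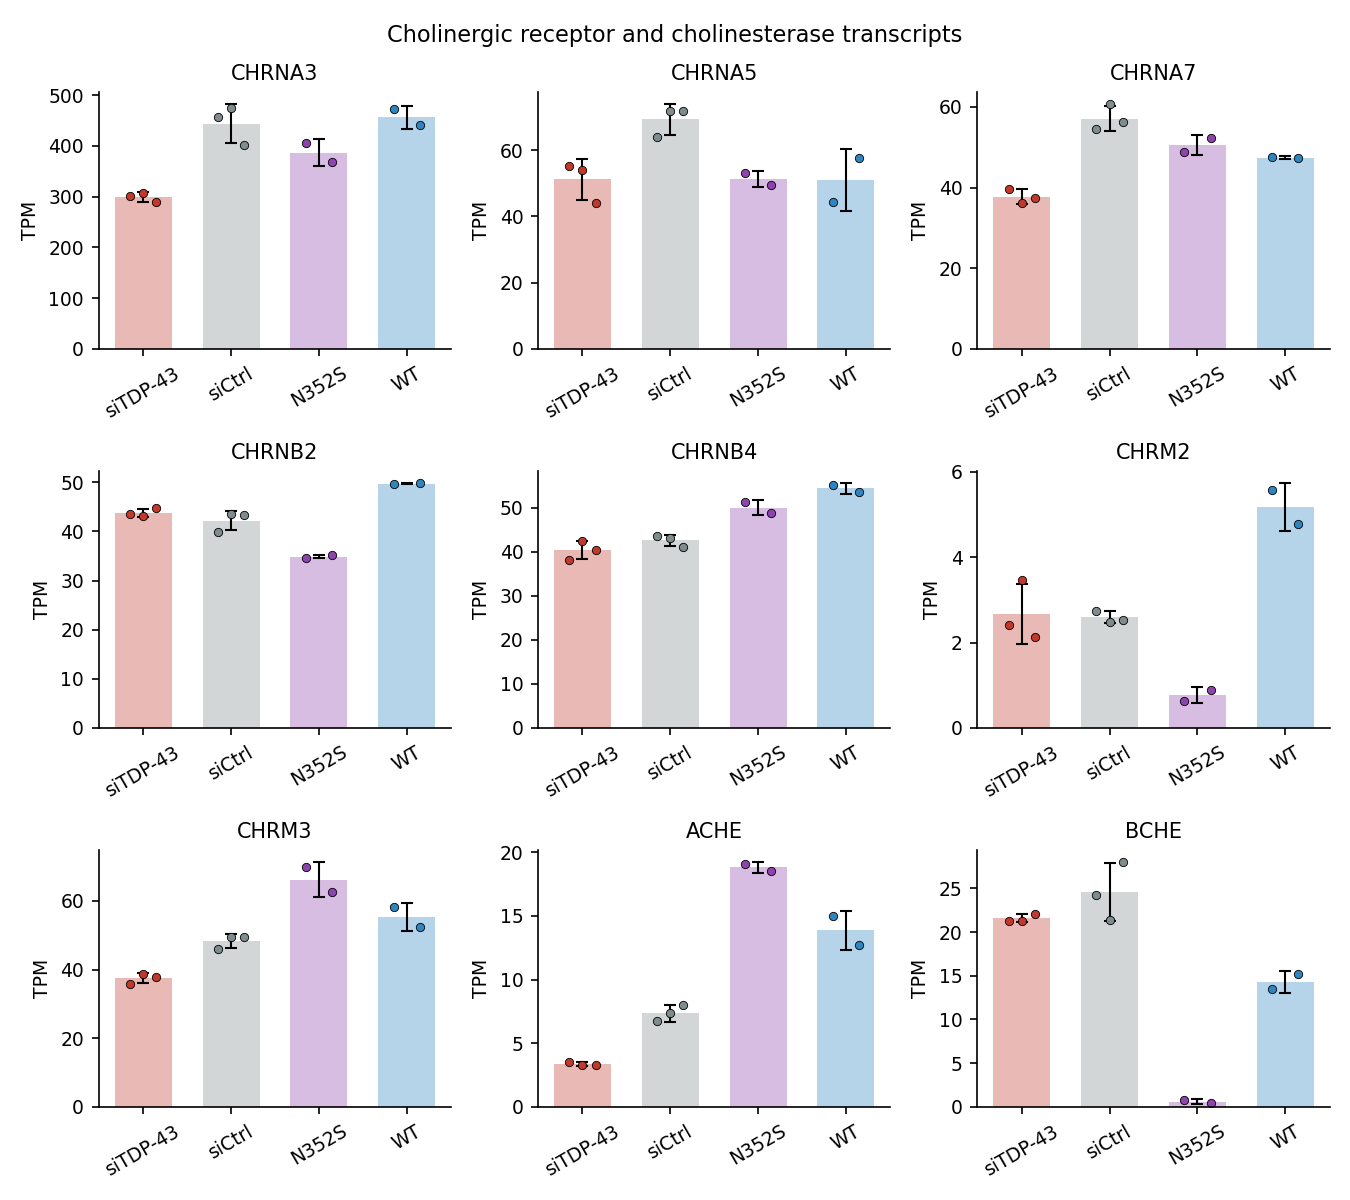
TPM of each gene in every library (points) over bars of the group mean with SD, for 3 siTDP-43 (left), 3 siControl, 2 N352S and 2 wild type (WT) libraries. ACHE is lowest in siTDP-43 and highest in N352S libraries, and BCHE is at 0.81 and 0.40 TPM in N352S libraries.

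Among the 9 members ACHE had the largest difference on knockdown and BCHE the largest in N352S cells. ACHE (ENSG00000087085, chromosome 7, 100889994 to 100896974, minus strand, GRCh38) had 3.56, 3.31 and 3.31 TPM in siTDP-43 libraries, against 6.71, 7.35 and 8.03 TPM in siControl libraries. Every siTDP-43 library lay below every siControl library, and the log2 difference was -0.93 ± 0.08 (limma adjusted p = 0.00013). ACHE had 19.09 and 18.52 TPM in N352S libraries, against 14.96 and 12.75 TPM in wild type libraries. Here the N352S libraries were the higher ones, with a log2 difference of 0.42 ± 0.10 (limma adjusted p = 0.019). The knockdown effect minus the N352S effect was -1.35 (95% interval -1.64 to -1.05, limma adjusted p = 0.00017). The 4 groups did not overlap anywhere in their order, N352S highest, then wild type, siControl and siTDP-43, a 5.54-fold span of means. The experiments differ in more than TDP-43, so levels are not tested across them.

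BCHE (ENSG00000114200, chromosome 3, 165772904 to 165837472, minus strand) had 0.81 and 0.40 TPM in N352S libraries, against 13.45 and 15.23 TPM in wild type libraries. Both N352S libraries lay far below both wild type libraries, a 23.7-fold lower mean, with a log2 difference of -3.27 ± 0.14 (limma adjusted p = 1.5e-06). BCHE had 21.31, 21.27 and 22.10 TPM in siTDP-43 libraries, against 24.28, 21.38 and 27.98 TPM in siControl libraries. The groups overlapped and the log2 difference of -0.17 (95% interval -0.44 to 0.09) was not called (adjusted p = 0.32). The effects differed by 3.09 on the log2 scale (95% interval 2.68 to 3.51, limma adjusted p = 1.2e-05). With a pseudocount of 5 the N352S difference of BCHE was -1.79 and the difference of effects 1.64, both still called.

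The makeup of cholinesterase transcripts therefore differed in both experiments, in opposite directions. ACHE made up 14.3%, 13.5% and 13.0% of summed ACHE and BCHE TPM in siTDP-43 libraries, against 21.7%, 25.6% and 22.3% in siControl libraries. It made up 95.9% and 97.9% in N352S libraries, against 52.7% and 45.6% in wild type libraries. The groups of each comparison did not overlap. With 3 against 3 libraries the unpaired exact permutation test (two-sided) gave 0.1, and with 2 against 2 it gave 0.333. Each is the smallest p that this test allows. The summed TPM of both enzymes was 25.0 ± 0.42 in siTDP-43 and 31.9 ± 3.7 in siControl libraries (n = 3 each), and 19.4 ± 0.69 in N352S and 28.2 ± 0.30 in wild type libraries (n = 2 each).

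**Figure D3:**
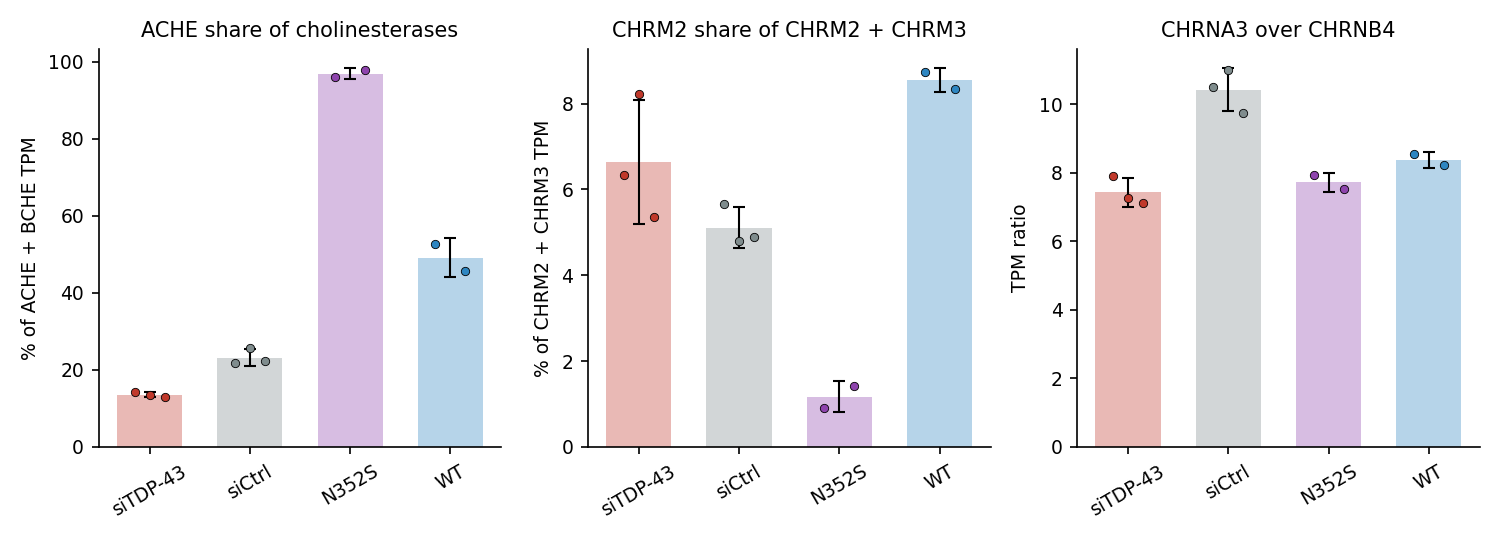
Percent of ACHE plus BCHE TPM held by ACHE (left), percent of CHRM2 plus CHRM3 TPM held by CHRM2 (middle) and ratio of CHRNA3 to CHRNB4 TPM (right), in every library (points) over bars of the group mean with SD. The ACHE share averages 13.6% in siTDP-43, 23.2% in siControl, 96.9% in N352S and 49.1% in wild type (WT) libraries.

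Cholinesterases are held at membranes or in the synaptic matrix by partner proteins, the membrane anchor PRIMA1 and the collagen tail COLQ. COLQ rose in N352S cells, with 9.05 and 8.48 TPM in N352S libraries, against 3.10 and 2.75 TPM in wild type libraries (log2 difference 1.32 ± 0.18, limma adjusted p = 0.0011). Both N352S libraries were well above both wild type libraries. PRIMA1 rose on knockdown, the direction opposite to ACHE, with 18.79, 17.01 and 18.05 TPM in siTDP-43 libraries, against 14.23, 13.82 and 13.44 TPM in siControl libraries (log2 difference 0.35 ± 0.05, limma adjusted p = 0.0019). The siTDP-43 libraries were all above the siControl libraries. COLQ on knockdown (adjusted p = 0.54) and PRIMA1 in N352S cells (adjusted p = 0.15) did not pass the test.

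CHRNA3 was the most abundant member in every library. This alpha subunit of ganglionic receptors (ENSG00000080644, chromosome 15, 78593052 to 78621295, minus strand) had 302.10, 307.78 and 288.58 TPM in siTDP-43 libraries, against 456.48, 474.46 and 401.56 TPM in siControl libraries. No siTDP-43 library reached a siControl library (log2 difference -0.56 ± 0.07, limma adjusted p = 0.00049). CHRNA3 had 405.78 and 368.25 TPM in N352S libraries, against 471.89 and 440.27 TPM in wild type libraries. The N352S libraries were lower, but the log2 difference of -0.24 (95% interval -0.42 to -0.05) was not called (adjusted p = 0.071). It was called with the replicate number of the siRNA libraries as a block (adjusted p = 0.039) and without siControl replicate 3 (adjusted p = 0.022), which change only the shared estimate of the spread. The knockdown effect minus the N352S effect was -0.33 (adjusted p = 0.054). It was called with the block (0.029), with a minimum mean of 5 TPM (0.042) and without siControl replicate 3 (-0.40, adjusted p = 0.0095).

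CHRNA5 and CHRNB4 lie beside CHRNA3 in one gene cluster on chromosome 15, CHRNA5 at 78565520 to 78595269 on the plus strand and CHRNB4 at 78624119 to 78727754 on the minus strand. CHRNA5 (ENSG00000169684), an accessory subunit that needs other subunits to form a channel, had 55.30, 54.13 and 44.08 TPM in siTDP-43 libraries, against 63.97, 71.99 and 71.91 TPM in siControl libraries. The siTDP-43 libraries were all lower (log2 difference -0.44 ± 0.11, limma adjusted p = 0.02). The call was lost in 5 of 20 alternatives, with adjusted p of 0.063 without siTDP-43 replicate 3, 0.064 without siControl replicate 2 and 0.06 without siControl replicate 3. It was also lost with no filter on low TPM (0.058) and under median-of-ratios scaling (0.052). CHRNA5 had 53.02 and 49.61 TPM in N352S libraries, against 44.36 and 57.71 TPM in wild type libraries, and the N352S libraries lay between the wild type ones (log2 difference 0.02, 95% interval -0.29 to 0.33, adjusted p = 0.94).

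In the GENCODE 29 annotation the antisense gene AC027228.2 (listed in the table as RP11-650L12.2, ENSG00000261762) shares 832 exonic bases with CHRNA5, which is 23.0% of the exonic bases of CHRNA5. It was looked at for this overlap. It had 23.57, 24.87 and 23.10 TPM in siTDP-43 libraries, against 46.81, 46.33 and 46.81 TPM in siControl libraries (log2 difference -0.94 ± 0.05, limma adjusted p = 1e-05). It had 24.62 and 27.53 TPM in N352S libraries, against 38.81 and 37.03 TPM in wild type libraries (log2 difference -0.53 ± 0.06, limma adjusted p = 0.00054). CHRNA3 and CHRNA5 also overlap tail to tail by 198 exonic bases. Whether counting used strand is not given in the labels, and reads of overlapping genes may then be mixed. The part of this overlap in the fall of CHRNA5 was not tested.

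CHRNB4 (ENSG00000117971), the beta subunit that pairs with CHRNA3, had 38.21, 42.46 and 40.54 TPM in siTDP-43 libraries, against 43.52, 43.09 and 41.17 TPM in siControl libraries. The groups overlapped (log2 difference -0.08, 95% interval -0.18 to 0.03, adjusted p = 0.28), and the sign turned under median-of-ratios scaling (0.01). It had 51.24 and 48.93 TPM in N352S libraries, against 55.26 and 53.61 TPM in wild type libraries (log2 difference -0.12, 95% interval -0.25 to 0.01, adjusted p = 0.19). CHRNA3 to CHRNB4 was 7.91, 7.25 and 7.12 in siTDP-43 libraries, against 10.5, 11.0 and 9.75 in siControl libraries. These groups did not overlap (unpaired two-sided exact permutation p = 0.1, the smallest that this test allows). Since both values come from the same library, this ratio does not depend on any single factor by which a library is scaled. Quantile normalization is not such a factor.

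CHRNB2 (ENSG00000160716, chromosome 1, 154567781 to 154580026, plus strand) is the beta subunit of the main brain receptors. It had 34.62 and 35.09 TPM in N352S libraries, against 49.65 and 49.77 TPM in wild type libraries. The libraries within each group differed by less than 1 TPM, and the N352S libraries were lower (log2 difference -0.50 ± 0.05, limma adjusted p = 0.00023). On knockdown CHRNB2 had 43.49, 43.18 and 44.70 TPM in siTDP-43 libraries, against 39.88, 43.47 and 43.25 TPM in siControl libraries. These groups overlapped, and the log2 difference of 0.05 (95% interval -0.04 to 0.15) was not called (adjusted p = 0.4), although it was called when scaled by median of ratios or by quantiles (0.14 and adjusted p = 0.034 in both). The effects differed by 0.55 (limma adjusted p = 0.00055). The ratio of CHRNB2 to CHRNB4 was 0.676 and 0.717 in N352S libraries, against 0.898 and 0.928 in wild type libraries.

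CHRNA7 (ENSG00000175344, chromosome 15, 31923438 to 32173018, plus strand), the subunit of calcium-permeable homomeric channels, had 39.69, 36.15 and 37.52 TPM in siTDP-43 libraries, against 54.49, 60.66 and 56.21 TPM in siControl libraries. All siTDP-43 libraries were lower (log2 difference -0.58 ± 0.05, limma adjusted p = 0.00016). It had 48.83 and 52.38 TPM in N352S libraries, against 47.66 and 47.24 TPM in wild type libraries (log2 difference 0.09, 95% interval -0.06 to 0.24, adjusted p = 0.38). The effects differed by -0.67 (limma adjusted p = 0.0007). CHRFAM7A, a fusion gene that carries a copy of part of CHRNA7, fell on knockdown too. It had 3.96, 4.93 and 5.66 TPM in siTDP-43 libraries, against 11.39, 10.56 and 10.51 TPM in siControl libraries (log2 difference -1.02 ± 0.11, limma adjusted p = 0.00031). Of all 50-base windows in CHRFAM7A transcripts, 75.2% also occur in CHRNA7 transcripts. Of the CHRNA7 windows, 23.7% also occur in CHRFAM7A transcripts. The split of reads between these genes is uncertain in the shared parts.

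CHRNA7 was the only member with an alternating TG run of at least 10 bases in a coding transcript of GENCODE 29, the kind of UG-rich stretch that TDP-43 binds. It is 16 bases long and lies in the 3′ untranslated region, at chr15:32170259-32170274 on the plus strand. It is shown with its flanks for that reason, with the run in capitals.
CHRNA7: tgcgGTGTGTGTGTGTGTGTaagtgtgagg
Such a run was present in 10.3% of 12682 tested genes with a coding transcript. Introns were not searched. The other members that fell on knockdown, CHRNA3, CHRNA5, CHRM3 and ACHE, had no such run in their coding transcripts. The part of the run in the fall of CHRNA7 was not tested.

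Together the 5 nicotinic members summed to 479, 484 and 455 TPM in siTDP-43 libraries, against 658, 694 and 614 TPM in siControl libraries. They summed to 593 and 554 TPM in N352S libraries, against 669 and 649 TPM in wild type libraries. CHRNA3 held 63.4% ± 0.27 of the sum in siTDP-43 and 67.7% ± 2.1 in siControl libraries (n = 3 each). CHRNB2 held 9.28% ± 0.47 in siTDP-43 and 6.46% ± 0.52 in siControl libraries, with no overlap between the groups. In N352S libraries CHRNB2 held 6.08% ± 0.35 and in wild type libraries 7.55% ± 0.18 (n = 2 each), so its share was higher on knockdown and lower in N352S cells. CHRNB4 too held more on knockdown, 8.55% ± 0.5 in siTDP-43 and 6.51% ± 0.26 in siControl libraries, with no overlap. It held 8.73% ± 0.14 in N352S and 8.26% ± 0.0023 in wild type libraries. Neither CHRNB2 nor CHRNB4 was itself called on knockdown, while CHRNA3, CHRNA5 and CHRNA7, which are part of the sum, fell.

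Of the muscarinic receptors, CHRM3 (ENSG00000133019, chromosome 1, 239386565 to 239915452, plus strand), which signals through Gq and calcium release, had 35.84, 38.80 and 37.80 TPM in siTDP-43 libraries, against 45.95, 49.44 and 49.47 TPM in siControl libraries. All siTDP-43 libraries were lower (log2 difference -0.36 ± 0.06, limma adjusted p = 0.0029). It had 69.80 and 62.64 TPM in N352S libraries, against 58.17 and 52.55 TPM in wild type libraries. The N352S libraries were higher (log2 difference 0.25 ± 0.07, limma adjusted p = 0.04). In 8 of 20 alternatives this was no longer called, with adjusted p up to 0.21. Among these were fits without siTDP-43 replicate 2 (0.053), siTDP-43 replicate 3 (0.061) or siControl replicate 2 (0.057), which leave the value itself at 0.25. Without N352S replicate 81 it was 0.18 (adjusted p = 0.2) and without wild type replicate 80 it was 0.18 (adjusted p = 0.21). The knockdown effect minus the N352S effect was -0.61 (95% interval -0.83 to -0.40, limma adjusted p = 0.0021).

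CHRM2 (ENSG00000181072, chromosome 7, 136868669 to 137020255, plus strand), which signals through Gi, had the lowest mean of the members in the siTDP-43, siControl and wild type groups. It had 0.64 and 0.90 TPM in N352S libraries, against 5.57 and 4.78 TPM in wild type libraries. Both N352S libraries were under 1 TPM (log2 difference -1.80 ± 0.18, limma adjusted p = 0.00018). On knockdown it had 2.42, 3.47 and 2.14 TPM in siTDP-43 libraries, against 2.75, 2.49 and 2.54 TPM in siControl libraries. The siTDP-43 libraries lay on both sides of the siControl ones (log2 difference 0.02, 95% interval -0.31 to 0.35, adjusted p = 0.95). The effects differed by 1.82 (limma adjusted p = 0.00071). The sizes depend on the pseudocount: the N352S difference was -2.61 with 0.1 and -0.82 with 5, and the difference of effects 2.63 and 0.83, all called. CHRM2 held 0.909% and 1.42% of summed CHRM2 and CHRM3 TPM in N352S libraries, against 8.74% and 8.34% in wild type libraries.

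Of all 9 members, 6 had effects that differed between the experiments, ACHE, BCHE, CHRM2, CHRM3, CHRNA7 and CHRNB2, where 22.0% of all tested genes did, 8.20% with a higher and 13.8% with a lower value on knockdown than in N352S cells. ACHE and CHRM3 were called in both experiments with opposite signs. CHRNA3 (adjusted p = 0.054), CHRNA5 (0.1) and CHRNB4 (0.73) did not pass this limma test. The N352S libraries did not overlap the wild type libraries in 8 of 9 members, where 60.1% of all tested genes showed the same, and the siTDP-43 and siControl libraries did not overlap in 5 of 9, against 43.6% of all tested genes.

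Over the whole order of levels, CHRM3 and ACHE shared the sequence N352S, wild type, siControl and siTDP-43, high to low, with no overlap between neighbours. CHRNA7 ran siControl, N352S, wild type and siTDP-43, also with no overlap. CHRNB2 and CHRM2 ran wild type, siTDP-43, siControl and N352S, and the siTDP-43 and siControl libraries overlapped. CHRNB4 ran wild type, N352S, siControl and siTDP-43, with an overlap of the lowest pair. BCHE ran siControl, siTDP-43, wild type and N352S, with an overlap of the highest pair and a 40.6-fold span of means. CHRNA3 ran wild type, siControl, N352S and siTDP-43, and only siTDP-43 stood apart from its neighbour. CHRNA5 ran siControl, N352S, siTDP-43 and wild type, and only siControl stood apart.

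Genes near the members gave a view of whether whole regions moved. For each member the 5 nearest tested protein-coding genes on each side were taken. The 10 neighbours of BCHE, over 9.34 Mb, had a median log2 difference of -0.15 in N352S cells (range -1.52 to 1.52, 3 called lower and 2 higher), against -3.27 for BCHE. Those of CHRM2, over 3.42 Mb, had a median of -0.08 in N352S cells (1 called lower and 1 higher), against -1.80 for CHRM2. Those of ACHE had a median of -0.09 on knockdown (2 called lower and 1 higher) and 0.06 in N352S cells (none lower and 3 higher). The neighbours of CHRM3 had a median of -0.17 on knockdown (4 called lower and none higher), against -0.36 for CHRM3. In N352S cells their median was 0.21 (1 called lower and 2 higher), against 0.25 for CHRM3. For CHRNB2 the neighbours had a median of 0.06 on knockdown and -0.03 in N352S cells, against 0.05 and -0.50 for CHRNB2. BCHE and CHRM2 thus lay far below the median of their surroundings. The 10 neighbours of the CHRNA5, CHRNA3 and CHRNB4 cluster had a median of -0.22 on knockdown (range -0.55 to 0.0), with 6 called lower and none higher. Within the cluster CHRNA3 stood at -0.56, CHRNA5 at -0.44 and CHRNB4 at -0.08. The 10 neighbours of CHRNA7 had a median of -0.28 (range -0.73 to -0.13), again with 6 called lower and none higher, against -0.58 for CHRNA7. The median of all tested genes on knockdown was -0.08, with 19.8% called lower. In N352S cells 20.2% of all tested genes were called in either direction.

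**Figure D4:**
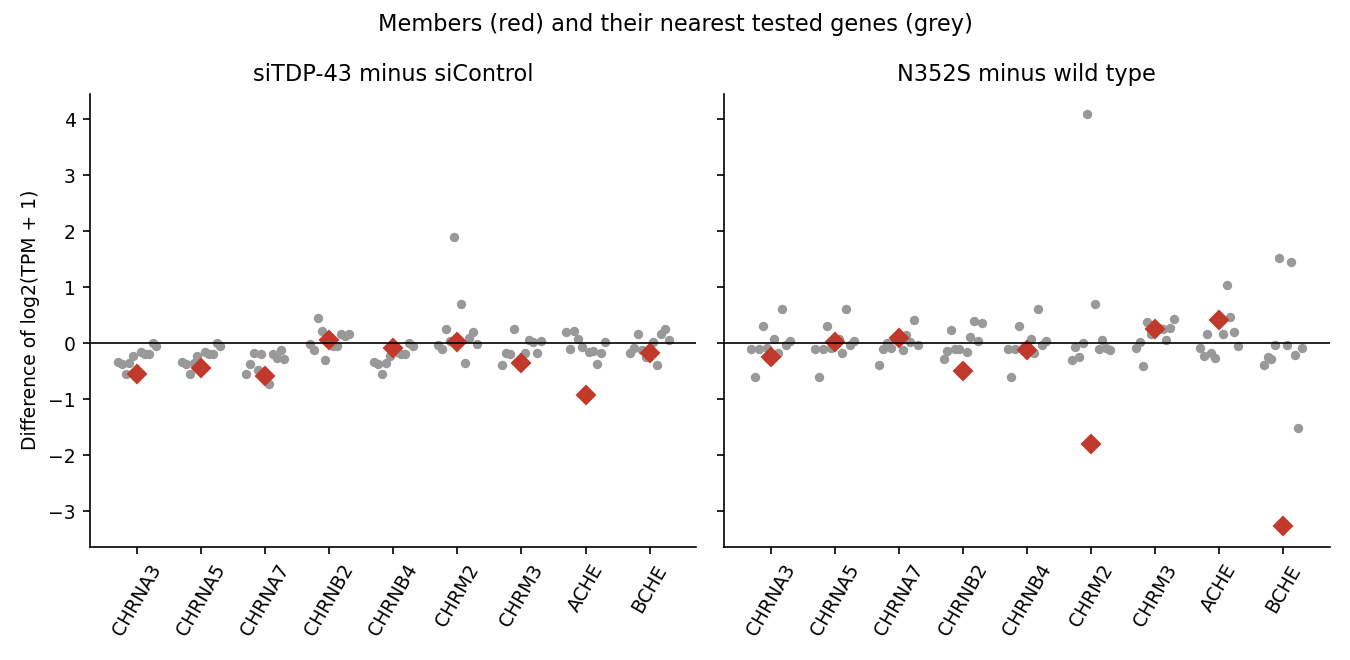
Difference of log2(TPM + 1) for each member (red diamond) and its 10 nearest tested protein-coding genes in genome order (grey points), siTDP-43 minus siControl (left) and N352S minus wild type (right). BCHE (-3.27) and CHRM2 (-1.80) stand below their neighbours in N352S cells, and ACHE (-0.93) does so on knockdown.

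Other genes of cholinergic signalling were taken as lists. Of 12 other nicotinic subunits (CHRFAM7A included), 3 were tested. In each comparison 1 was called, 33.3% of those tested, against 26.0% of all tested genes on knockdown and 20.2% in N352S cells. CHRFAM7A fell on knockdown and CHRNA10 in N352S cells, with 0.77 and 0.81 TPM in N352S libraries, against 1.55 and 1.46 TPM in wild type libraries (limma adjusted p = 0.046). That call did not hold in 15 of 19 alternatives. CHRNB1, a subunit known from muscle, did not pass the test on knockdown, at 20.9 ± 0.84 TPM in siTDP-43 and 20.9 ± 0.63 TPM in siControl libraries (n = 3 each; adjusted p = 1). None of the 3 other muscarinic receptors reached the minimum mean of 1 TPM over the 10 libraries. CHRM5 averaged 1.025 TPM in N352S and 1.03 TPM in wild type libraries, and 0.497 TPM in siTDP-43 and 0.443 TPM in siControl libraries. CHRNB3 was listed at 0 in all libraries.

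Genes that make acetylcholine were low. Choline acetyltransferase (CHAT) stood at 0.34 to 0.82 TPM over all libraries, and the choline transporter SLC5A7 at 0.02 TPM or less. The vesicular transporter SLC18A3, which loads acetylcholine into vesicles, had 15.77, 16.79 and 15.07 TPM in siTDP-43 libraries, against 18.80, 19.57 and 17.04 TPM in siControl libraries (log2 difference -0.21 ± 0.06, limma adjusted p = 0.04). That call was lost in 11 of 20 alternatives, including median-of-ratios scaling (adjusted p = 0.23). The list of synthesis, storage and choline uptake also holds choline kinases, which do not make acetylcholine. Of its 5 tested genes, 1 fell on knockdown (SLC18A3) and 1 in N352S cells, the choline kinase CHKA. That is 20.0% in each comparison, against 26.0% and 20.2% of all tested genes. CHKA had 27.69 and 31.44 TPM in N352S libraries, against 35.63 and 35.73 TPM in wild type libraries (limma adjusted p = 0.015). Its call was lost in 4 of 20 alternatives, among them the fit of only these groups (adjusted p = 0.1).

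Nicotinic receptors need chaperones to reach the surface, RIC3 and TMEM35A (known as NACHO) among them, and Ly6 proteins such as LYPD1 and LY6E modulate them. Of 7 tested genes of this list, 2 fell and none rose on knockdown, with a median log2 difference of -0.16. In N352S cells 4 rose and 1 fell, with a median of 0.43, against -0.03 for all tested genes. The called share of the list was 28.6% on knockdown and 71.4% in N352S cells, against 26.0% and 20.2% of all tested genes. RIC3 fell in both, with 18.36, 19.46 and 18.46 TPM in siTDP-43 libraries, against 23.64, 23.42 and 23.41 TPM in siControl libraries (limma adjusted p = 0.0037). It had 21.53 and 18.86 TPM in N352S libraries, against 24.02 and 24.77 TPM in wild type libraries (limma adjusted p = 0.024). TMEM35A rose in N352S cells, with 18.47 and 16.74 TPM in N352S libraries, against 9.98 and 9.84 TPM in wild type libraries (log2 difference 0.77 ± 0.07, limma adjusted p = 0.00016). LYPD1 had 11.86 and 12.41 TPM in N352S libraries, against 4.79 and 4.80 TPM in wild type libraries (limma adjusted p = 0.0011, and 0.052 with a pseudocount of 0.1), while all siRNA libraries stood at or below 0.50 TPM. LY6E fell on knockdown (log2 difference -0.28, limma adjusted p = 0.019) and rose in N352S cells (0.43, limma adjusted p = 0.0081). Its fall lost the call under median-of-ratios scaling (adjusted p = 0.08), quantile normalization (0.092) and without siTDP-43 replicate 1 (0.052) or siTDP-43 replicate 2 (0.068), and its rise without wild type replicate 80 (0.054).

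**Figure D5:**
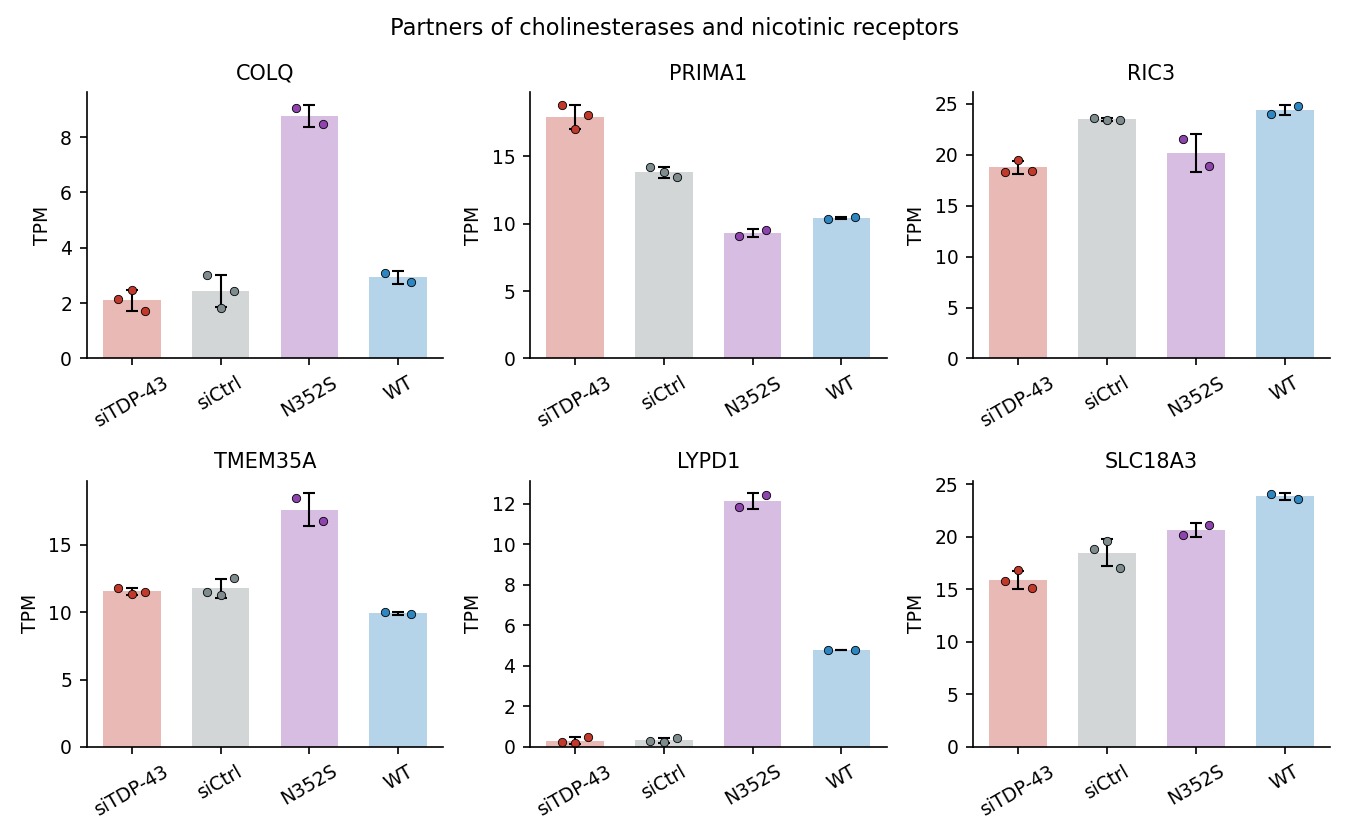
TPM of cholinesterase partners (COLQ, PRIMA1), nicotinic chaperones (RIC3, TMEM35A), the Ly6 protein LYPD1 and the vesicular transporter SLC18A3 in every library (points) over bars of the group mean with SD. COLQ, TMEM35A and LYPD1 are highest in N352S libraries, and PRIMA1 is highest in siTDP-43 libraries.

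Downstream of the muscarinic receptors, 5 of 20 tested genes fell and 1 rose on knockdown, and 3 fell and 3 rose in N352S cells. That is 30% of the list in each comparison, close to the 26.0% of all tested genes called on knockdown, and against 20.2% called in N352S cells. The calcium release channel ITPR3 averaged 1.83 ± 0.20 TPM in siTDP-43 and 4.02 ± 0.29 TPM in siControl libraries (n = 3 each; limma adjusted p = 0.00038). ITPR1, a channel of the same kind, was more abundant, with a mean of 25.3 TPM over all 10 libraries, against 3.41 TPM for ITPR3. ITPR1 rose by 0.25 on the log2 scale on knockdown (limma adjusted p = 0.03) and by 0.54 in N352S cells (limma adjusted p = 0.003). The phospholipase PLCB4 had 13.28 and 10.82 TPM in N352S libraries, against 26.96 and 26.88 TPM in wild type libraries (limma adjusted p = 3.7e-05). RGS4, which shortens G protein signals, fell in both experiments, by 0.29 on the log2 scale on knockdown (limma adjusted p = 0.0031) and by 0.44 in N352S cells (limma adjusted p = 0.0012). The inhibitory G protein subunit GNAI2 fell by 0.21 on knockdown (limma adjusted p = 0.0042).

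Among 8 tested transcription factors known or proposed to act on the receptor cluster or the noradrenergic state, 3 rose and 2 fell on knockdown, and 2 rose and 1 fell in N352S cells. The called share was 62.5% on knockdown and 37.5% in N352S cells, against 26.0% and 20.2% of all tested genes. PHOX2A averaged 407.0 ± 11.6 TPM in siTDP-43 and 522.1 ± 25.9 TPM in siControl libraries (n = 3 each; limma adjusted p = 0.0013). In N352S libraries it had 611.89 and 684.52 TPM, against 535.12 and 521.59 TPM in wild type libraries (limma adjusted p = 0.011; lost without N352S replicate 82 at 0.071, without wild type replicate 80 at 0.065 and in the fit of only these groups at 0.058). GATA3 rose on knockdown (log2 difference 0.36, limma adjusted p = 0.00044). The repressor REST, which holds down neuronal genes, fell on knockdown (-0.45, limma adjusted p = 0.011) and rose in N352S cells (0.47, limma adjusted p = 0.026). In 5 of 20 alternatives the rise was no longer called. Among these, the log2 difference was 0.35 without N352S replicate 81, 0.57 without wild type replicate 79 and 0.38 without wild type replicate 80.

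Markers of other cell states moved beside these results. The 10 mesenchymal markers summed to 932.8 and 975.9 TPM in N352S libraries, against 543.4 and 561.7 TPM in wild type libraries. Most of this was VIM, which averaged 687.5 TPM in N352S and 361.5 TPM in wild type libraries. Of 8 tested, 4 were called higher and 2 lower (CD44 and YAP1). That is 75.0%, against 20.2% of all tested genes called in N352S cells. PRRX1 was at 0.41 TPM or less in every library. The 8 Schwann cell markers summed to between 33.12 and 36.33 TPM in siTDP-43 libraries, against 58.49 to 59.84 TPM in siControl libraries, mostly PMP22, while the defining factor SOX10 was at 0.40 TPM or less in every library and CDH19 at 0.01 TPM or less. The part of these markers in the changes of the receptors and cholinesterases was not tested.

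For the 3 members with the widest range of group means, the genes most alike over the 4 group means of log2(TPM + 1), each centred on its own average, were sought among 11245 protein-coding genes. BCHE lay nearest to TIMP1 (root mean square distance 0.29), TNFRSF1A (0.30) and MXRA8 (0.33). TIMP1 averaged 49.6, 47.4, 1.07 and 24.4 TPM in siTDP-43, siControl, N352S and wild type libraries. ACHE lay nearest to RGS11 (0.09), CACNA2D2 (0.10) and C19orf66 (0.11), and CACNA2D2 averaged 52.3, 83.5, 217 and 153 TPM in the same order of groups. CHRM2 lay nearest to DCLK3 (0.05), SFRP1 (0.08) and HOXC10 (0.12). These are likenesses over 4 points and describe the pattern only.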

How the data were processed

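RNA of 10 SH-SY5Y libraries in 4 groups was extracted with Trizol, and TruSeq RNA libraries were prepared from it, per the labels' protocols. The authors deposited TPM per gene, and the submitters' processing notes name the tools RSEM and STAR and the build hg38. Tool versions, gene annotation and strand setting: not given in the sources used here. TPM sum to 1000000 or 999999 per library and keep no depth, so no counting interval can be given. Positions and types came from GENCODE 29, which holds 99.4% of the 58174 identifiers, and promoters from RefSeq.

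Values were analysed as log2(TPM + 1) for genes whose mean reached 1 TPM. Group means of all 4 groups were fitted with limma (version 3.58.1, under R 4.3.3), letting the variance follow the mean and leaving 6 residual degrees of freedom, and Benjamini-Hochberg adjusted p under 0.05 over all 17118 genes was called. The fit was tested on simulated data. The members and lists were chosen with earlier results of these data known. Named genes are the 9 members, TARDBP, up to 3 called genes per list and comparison with the smallest adjusted p, and the 3 most alike genes for 3 members. Some genes that the rule names are not reported here. Others (among them markers, overlapping genes, ITPR1, and genes at or near 0) were chosen by annotation or after their values were seen. Both siRNA groups carry the numbers 1 to 3 in their titles. Same-numbered libraries deviated together (correlations 0.34, 0.14 and 0.20, all above 0.1), so a fit with the numbers as a block was run as an alternative. The main fit and the permutation tests took the libraries as unpaired. Alternatives changed the pseudocount, filter, scaling, groups fitted, variance model and block, and left out each library. Figures used matplotlib 3.10.9.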

Additional observations from a re-analysis of the deposited data

Results flagged for a closer look

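The effect of knockdown differed from that of N352S for 6 members in the limma test of the difference itself (siTDP-43 minus siControl, minus N352S minus wild type). BCHE (3.09), CHRM2 (1.82) and CHRNB2 (0.55) were lower in N352S cells with no called change on knockdown. ACHE (-1.35) and CHRM3 (-0.61) fell on knockdown and rose in N352S cells. CHRNA7 (-0.67) fell on knockdown with no called change in N352S cells. All values are on the log2(TPM + 1) scale. The experiments also differ in transfection and in the history of the edited cells, so TDP-43 level, the substitution and the experiment cannot be told apart.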

How the results depend on the processing

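Over 20 alternatives (19 for the difference of effects), 497 of 528 values for the 9 members kept their direction and their side of the threshold, 17 lost the call, 8 gained it and 6 turned sign. The count of members called was 5 on knockdown and 5 in N352S cells. In N352S cells it was 3 when only the groups compared were fitted, and 3 to 6 when libraries were left out, with 3 without N352S replicate 81, 3 without wild type replicate 80 and 6 without siControl replicate 3. Over all genes 3450 were called in N352S cells, 1891 when only those groups were fitted and 1824 to 3757 when libraries were left out (1824 without wild type replicate 79, 2183 without wild type replicate 80 and 2252 without N352S replicate 82). Sizes of low genes moved with the pseudocount, all keeping their call: over pseudocounts of 0.1 and 5, BCHE in N352S cells was -4.42 and -1.79, CHRM2 in N352S cells -2.61 and -0.82, ACHE on knockdown -1.09 and -0.56, and the differences of effects 4.24 and 1.64 for BCHE, 2.63 and 0.83 for CHRM2 and -1.53 and -0.90 for ACHE. The values that turned sign were not called in any fit. CHRNB4 on knockdown was 0.01 under median-of-ratios scaling and 0.01 under quantile normalization. CHRNA5 in N352S cells was -0.03 without N352S replicate 81 and -0.17 without wild type replicate 79 (-0.17 to 0.21 over the libraries left out). CHRM2 on knockdown was -0.13 without siTDP-43 replicate 2 and -0.00 without siControl replicate 2. The lost calls of CHRNA5, CHRM3 and ACHE stand in the report or here. The rise of ACHE in N352S cells had adjusted p of 0.068 with only the groups compared and 0.065 to 0.12 without N352S replicate 81, N352S replicate 82 or wild type replicate 80. The lone library left in such fits is assumed to vary like the other groups. With the replicate block 6 members were called in N352S cells and 4293 genes were called on knockdown, and among the members it changed only the calls of CHRNA3 in N352S cells (-0.24) and in the difference of effects (-0.33). The CHRNA3 difference of effects was also called without siControl replicate 3 (-0.40, adjusted p = 0.0095) and with a minimum mean of 5 TPM (adjusted p = 0.042). The CHRNA5 difference of effects was called without wild type replicate 80 (-0.64, adjusted p = 0.035). CHRM2, with a mean under 5 TPM, has no value under the filter at 5 TPM. The causes of these shifts were not tested. With no depth in TPM, how far counting error limits CHRM2 and BCHE at under 1 TPM is unknown.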
